A study of Homo sapiens with 10 samples.

Results

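The 34 genes described here make cholesterol and fatty acids, or sense and export sterols, and were chosen by gene symbol from a fixed set covering the sterol regulatory element-binding protein (SREBP) pathway, sterol synthesis, fatty acid synthesis and sterol efflux. All 34 of the 34 symbols were among the 22003 features of the count table, and all 34 were among the 14799 features that had enough counts to be tested. RNA was sequenced from 10 libraries of HaCaT cells of wild-type genotype; HaCaT is an established human keratinocyte line that became immortal without an added oncogene, and the labels give its tissue as mucosa. LBP is a polysaccharide-glycoprotein preparation of the plant Lycium barbarum; no source used here states its concentration or what the vehicle was. The irradiated LBP group (3 libraries) had LBP for 24 h and then 12 Gy, the irradiated vehicle group (3 libraries) had vehicle for 24 h and then 12 Gy, the LBP group (2 libraries) had LBP without radiation, and the vehicle group (2 libraries) had vehicle without radiation. All groups were grown in the same medium with fetal bovine serum, which supplies lipoprotein cholesterol and fatty acids to the cells, and RNA was harvested 3 h after irradiation. The titles call each library a numbered "repeated experiment group", but do not say whether these were separate cultures or what libraries with the same number share. Each p-value therefore reflects no more than the spread between these libraries, which may be technical.

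As background, when sterols in the endoplasmic reticulum run low, the carrier SCAP escorts SREBP proteins to the Golgi, where they are cut and released to the nucleus to switch on the enzymes of cholesterol and fatty acid synthesis; INSIG proteins hold SCAP back when sterols are plentiful. Liver X receptors (LXRs) work in the opposite situation, since oxidised sterols activate them to switch on efflux transporters, and they also raise SREBF1. Keratinocytes are active lipid makers, because the barrier of the skin is built from cholesterol, free fatty acids and ceramides.

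Depth ran from 31830506 to 62986831 counts per library. The keratinocyte markers KRT5, KRT14, TP63, ITGB4, COL17A1 and DSG3 were all detected and together made up between 8048 and 9058 CPM (counts scaled to a common library size) in irradiated LBP libraries, between 7285 and 8288 in irradiated vehicle libraries, between 8789 and 9198 in LBP libraries and between 7832 and 8090 in vehicle libraries. Over all libraries, 5 fibroblast markers summed to 3.89 to 5.74 CPM, 5 leukocyte markers to 0.771 to 1.65 CPM, 4 melanocyte markers to 0.637 to 1.27 CPM and 7 sebocyte markers to 13.6 to 17.3 CPM, with DCN, TYR, MC5R and AWAT1 at 0 in every library. Most of the sebocyte sum was PPARG, with group means of 14.3 to 15.5 CPM. Most of the fibroblast sum was COL1A1, with group means of 4.34 to 5.35 CPM. CPM values were scaled between libraries with edgeR's TMM factors.

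FADS1 and FADS2 lie on opposite strands, and the windows used here for them are close together. The promoters of the 3 genes that passed a test are shown first, because the letters show which common promoter boxes each window holds. Each is the RefSeq window (GRCh38.p14) from 250 bases before to 50 bases after the start, read 5′ to 3′ on the gene's own strand, with the matches to the searched motifs in capitals. ACSS2 is on the plus strand at chr20:34874739-34875038, FADS1 on the minus strand at chr11:61816954-61817253 and FADS2 on the plus strand at chr11:61815953-61816252.
ACSS2: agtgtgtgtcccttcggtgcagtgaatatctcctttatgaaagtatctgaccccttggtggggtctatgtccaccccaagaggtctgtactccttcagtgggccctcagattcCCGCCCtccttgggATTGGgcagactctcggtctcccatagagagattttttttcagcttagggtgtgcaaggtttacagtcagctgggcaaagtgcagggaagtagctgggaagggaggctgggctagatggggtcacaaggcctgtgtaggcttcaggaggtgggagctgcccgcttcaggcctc
FADS1: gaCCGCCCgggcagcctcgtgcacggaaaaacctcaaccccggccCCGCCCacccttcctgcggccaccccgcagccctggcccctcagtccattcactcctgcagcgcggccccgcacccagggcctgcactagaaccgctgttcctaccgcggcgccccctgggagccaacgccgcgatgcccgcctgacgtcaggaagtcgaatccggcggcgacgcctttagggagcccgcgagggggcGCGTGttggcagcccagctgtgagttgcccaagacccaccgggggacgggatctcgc
FADS2: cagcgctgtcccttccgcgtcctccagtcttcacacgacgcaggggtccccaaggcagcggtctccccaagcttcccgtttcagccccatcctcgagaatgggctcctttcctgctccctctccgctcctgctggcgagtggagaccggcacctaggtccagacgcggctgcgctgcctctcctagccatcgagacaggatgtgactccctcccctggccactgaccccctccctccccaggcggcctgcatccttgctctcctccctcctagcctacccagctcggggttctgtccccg
The motifs were searched on both strands. In the ACSS2 window the capitals mark a GGGCGG (Sp1) box on the minus strand, 137 to 132 bases before the start, and a CCAAT (NF-Y) box on the minus strand, 123 to 119 bases before it. In the FADS1 window they mark 2 GGGCGG boxes on the minus strand and a GCGTG (xenobiotic response element core) on the plus strand. The FADS2 window held none of the searched letters. A single RefSeq window was used per gene, and a gene can have other starts. The GENCODE spans of FADS2 and ACSS2 begin before these windows, at 61792980 and 34872146. Other starts were not searched, so a missing match applies to the printed window only.

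RefSeq promoter windows were matched for 30 of the 34 genes. FDFT1, SQLE, FASN and ABCG1 had no entry. The CCAAT box was in 19 of the 30 windows (63.3%), against 34.61% of all 35116 promoter windows of the same length. The GGGCGG box was in 28 of the 30 (93.3%), against 44.95% of all windows, and the GCGTG core in 21 of the 30 (70.0%), against 36.54%. The sterol regulatory element TCACNCCAC was in 1 of the 30 (3.33%), that of SREBF2, against 1.13%. The antioxidant response element core TGACNNNGC was in 1 of the 30 (3.33%), that of EBP, against 13.35%. Matches of different motifs can share bases, although none did in the printed windows. These are matches of letters in short windows and not measured binding sites. The set of all windows was not limited to genes of the count table. It was matched to the 34 genes neither for base content nor for expression, so the shares are not a like comparison.

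The enzymes were expressed at very different levels, so levels are compared per length of gene in the authors' deposited FPKM, which divides fragments by gene length and by library depth. SCD, the stearoyl-CoA desaturase that makes monounsaturated fatty acids, had the highest level, with a mean of 220.04 FPKM over the 10 libraries and a range of 166 to 284. FDPS, which makes farnesyl diphosphate, followed at 147 FPKM and FDFT1, the squalene synthase, at 124 FPKM. ACLY, which makes acetyl-CoA from citrate, stood at 111 FPKM and DHCR7, which carries out the last reduction to cholesterol, at 96.1 FPKM. The ranges of FDPS (135 to 163 FPKM) and FDFT1 (111 to 138 FPKM) overlapped, and that of ACLY (101 to 130 FPKM) overlapped that of FDFT1. At the low end of the biosynthetic enzymes, FADS2 had a mean of 5.61 FPKM and TM7SF2, a sterol reductase, 3.40 FPKM. The LXR-responsive genes were lower still, with MYLIP at 2.02, the cholesterol exporter ABCA1 at 0.308 and the transporter ABCG1 at 0.175 FPKM. ABCG1 had as few as 16 counts in a library, so its values carry the most counting error of the 34 genes.

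**Figure D1:**
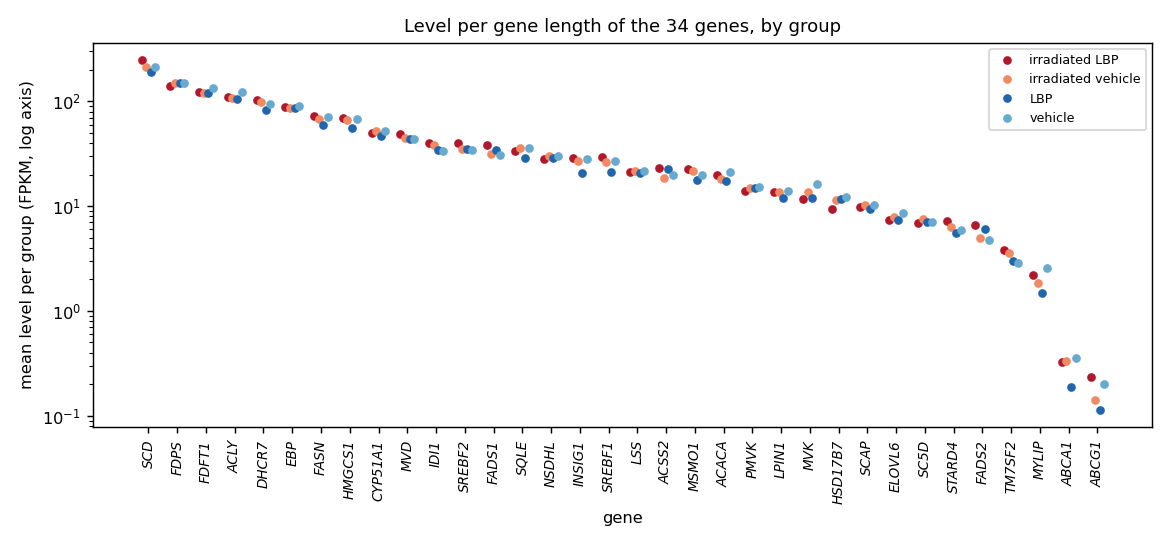
Mean FPKM of each of the 34 genes (log axis) in the irradiated LBP, irradiated vehicle, LBP and vehicle groups, with genes ordered by their mean over the 10 libraries. Levels span from 220.04 FPKM for SCD to 0.175 FPKM for ABCG1, and the 4 group means of each biosynthetic enzyme lie close together next to that span.

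The effect of LBP was asked first as an average over irradiated and non-irradiated cells, with equal weight for both radiation states. It draws on all 5 LBP and all 5 vehicle libraries. FADS2, FADS1 and ACSS2 rose with LBP and none of the other 31 genes passed the test. FADS2 and FADS1 are the desaturases that turn linoleic and alpha-linolenic acid into longer, more unsaturated fatty acids, and ACSS2 makes acetyl-CoA from acetate, so these 3 genes supply or modify fatty acids. The 17 enzymes of sterol synthesis gave no gene past the test. The 3 rises are 8.82% of the 34 genes, against 3.99% of all 14799 features higher and 2.93% lower (edgeR's quasi-likelihood test with Benjamini-Hochberg adjustment over all features, adjusted p under 0.05, which gave all adjusted p-values below for which no tool is named). Before adjustment 6 of the 34 (17.6%) had p under 0.05, against 23.3% of all features. With limma on log2 FPKM, FADS2 alone of the 34 was called.

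FADS2 lies on chromosome 11 from 61792980 to 61867354 on the plus strand (GRCh38, GENCODE, ENSG00000134824). It had 19.7, 18.1 and 22.1 CPM in irradiated LBP libraries, 16.1, 13.9 and 16.2 CPM in irradiated vehicle libraries, 19.6 and 18.4 CPM in LBP libraries and 14.6 and 14.9 CPM in vehicle libraries. All 5 LBP libraries lay above all 5 vehicle libraries, which was so for 2 of the 34 genes, FADS2 and ACSS2, and for 4.55% of all features; 0 of the 34 lay wholly lower, against 3.26%. The averaged log2 fold change was 0.37 ± 0.08 (SE; 95% interval 0.21 to 0.54; adjusted p = 0.0148). The call was lost without LBP replicate 1 (adjusted p = 0.0684), vehicle replicate 1 (0.0775) or vehicle replicate 2 (0.0599), with the log2 fold change between 0.34 and 0.38.

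ACSS2 lies on chromosome 20 from 34872146 to 34927962 on the plus strand (ENSG00000131069). It had 72.0, 71.7 and 84.3 CPM in irradiated LBP libraries, 59.9, 56.9 and 65.6 CPM in irradiated vehicle libraries, 73.6 and 79.4 CPM in LBP libraries and 68.3 and 60.2 CPM in vehicle libraries. The lowest LBP library stood above the highest vehicle library in both radiation states. The averaged log2 fold change was 0.29 ± 0.07 (SE; 95% interval 0.14 to 0.44; adjusted p = 0.0281). It was not called without irradiated vehicle replicate 1 or 2, LBP replicate 1 or 2, or vehicle replicate 1 or 2, where the adjusted p ran from 0.0613 to 0.127 and the log2 fold change from 0.24 to 0.32. ACLY, the other source of cytosolic acetyl-CoA, gave -0.05 and did not pass.

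FADS1 lies on chromosome 11 from 61799625 to 61829318 on the minus strand (ENSG00000149485), inside the annotated span of FADS2. It had 186, 181 and 195 CPM in irradiated LBP libraries, 158, 145 and 156 CPM in irradiated vehicle libraries, 186 and 161 CPM in LBP libraries and 165 and 136 CPM in vehicle libraries. The irradiated groups did not overlap, while LBP replicate 2 lay below vehicle replicate 1. The averaged log2 fold change was 0.25 ± 0.06 (SE; 95% interval 0.11 to 0.39; adjusted p = 0.0413). It was not called without irradiated LBP replicate 1 or 3, any 1 of the 3 irradiated vehicle replicates, LBP replicate 1 or vehicle replicate 2, where the adjusted p ran from 0.0658 to 0.168 and the log2 fold change from 0.18 to 0.26.

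FADS1 and FADS2 share 490 exonic bases on opposite strands in that annotation. The starts of the RefSeq windows used here for them lie 800 bases apart. Their GENCODE spans begin elsewhere, at 61792980 for FADS2 and, on the minus strand, at 61829318 for FADS1. FADS1 had the higher level, with a mean of 33.95 FPKM over all libraries, against 5.61 FPKM for FADS2. FADS2 also shares 49 exonic bases on the same strand with FEN1, which is in the count table. No source used here states whether the authors' counting used strand, so reads from the shared bases cannot be told apart and the 2 values are not fully separate measurements. FADS3, the third gene of the cluster and not one of the 34, lies on chromosome 11 from 61873519 to 61892051 on the minus strand, 6165 bases beyond the end of FADS2. It desaturates the sphingoid base of ceramides and is given here for its place beside them. FADS3 had 34.2, 28.7 and 31.3 CPM in irradiated LBP libraries, 23.7, 21.0 and 21.9 CPM in irradiated vehicle libraries, 30.2 and 31.2 CPM in LBP libraries and 20.8 and 20.5 CPM in vehicle libraries. Its averaged log2 fold change was 0.54 ± 0.07 (SE; adjusted p = 0.000568).

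**Figure D2:**
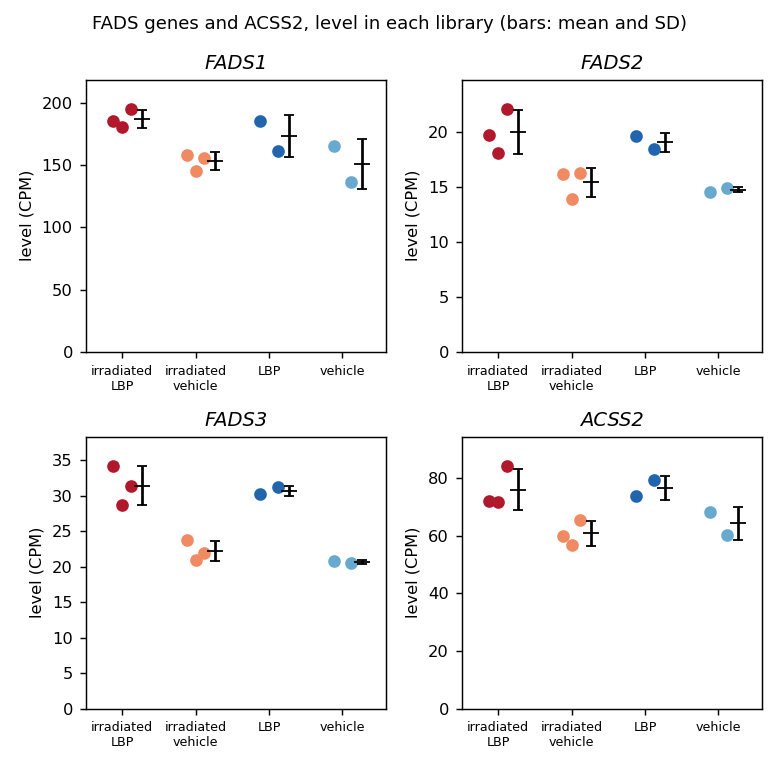
CPM of FADS1, FADS2, FADS3 and ACSS2 in each library (points), with the mean and SD beside them, for the irradiated LBP, irradiated vehicle, LBP and vehicle groups; the axes start at 0. For FADS2, FADS3 and ACSS2 all 5 LBP libraries lie above all 5 vehicle libraries, and for FADS1 the LBP group overlaps the vehicle group.

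In irradiated cells alone, irradiated LBP against irradiated vehicle, FADS2 was the only one of the 34 genes called, and it was higher (2.94% of the 34, against 2.79% of all features higher and 1.57% lower). FADS2 averaged 20.0 ± 1.99 CPM in irradiated LBP cells and 15.4 ± 1.31 CPM in irradiated vehicle cells (SD, n = 3 each), a log2 fold change of 0.37 ± 0.10 (SE; 95% interval 0.17 to 0.58; adjusted p = 0.0487). Leaving out a library ended the call in 9 of 10 cases, with adjusted p from 0.0649 to 0.175, and kept it only without irradiated LBP replicate 2 (adjusted p = 0.0327). ACSS2 (0.32, adjusted p = 0.0561), FADS1 (0.29, adjusted p = 0.0656) and SREBF2 (0.21, adjusted p = 0.0971) did not pass, and HSD17B7, an enzyme of sterol demethylation, gave -0.27 (adjusted p = 0.205). DESeq2 called 4 of the 34 in this comparison, namely FADS2, ACSS2, FADS1 and SREBF2. The groups did not overlap, with LBP higher, for SREBF2, ACSS2, ACACA, FADS1 and FADS2 (5 of 34, or 14.7%, against 13.9% of all features) and, with LBP lower, for PMVK (1 of 34, against 13.6%).

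In non-irradiated cells, LBP against vehicle, edgeR called 0 of the 34 genes, against 0.804% of all features, and DESeq2 also called 0. At an unadjusted p under 0.05 there were 6 (17.6%, against 13.5% of all features). FADS2 (0.37, adjusted p = 0.201) and ACSS2 (0.25, adjusted p = 0.326) were above 0 among these. ACACA, the acetyl-CoA carboxylase (-0.22, adjusted p = 0.212), ABCA1 (-0.87, adjusted p = 0.253), SQLE, the squalene epoxidase (-0.26, adjusted p = 0.297), and MYLIP (-0.71, adjusted p = 0.346) were below 0. The LBP group lay wholly below the vehicle group for 10 of 34 (29.4%, against 22.3% of all features) and wholly above it for 4 of 34 (11.8%, against 23.2%). This comparison has 2 libraries a side and its intervals are wide.

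The sterol enzymes differed little between groups. From HMGCS1, MVK, PMVK, MVD, IDI1 and FDPS of the mevalonate steps, through FDFT1, SQLE and LSS, to the 8 enzymes after lanosterol, 0 of 17 passed edgeR's test in any of the 7 comparisons, and no alternative tool or setting called one. For the LBP effect averaged over radiation states their median log2 fold change was -0.03, against 0.01 over all features, with values from -0.17 for MVK to 0.13 for TM7SF2. Leaving out 1 library at a time moved that median between -0.06, without vehicle replicate 2, and 0.004, without vehicle replicate 1. Of the 17, 1 had an unadjusted p under 0.05, SQLE (-0.16, adjusted p = 0.164). The 95% intervals of the 17 enzymes together ran from -0.36 (MVK) to 0.34 (TM7SF2), so a larger averaged effect of LBP on any of them lay outside its interval. HMGCS1, an enzyme of the mevalonate steps, had 334, 292 and 345 CPM in irradiated LBP libraries and 323, 302 and 288 in irradiated vehicle libraries. It had 318 and 253 CPM in LBP libraries and 337 and 294 in vehicle libraries. SQLE, a rate-limiting enzyme of sterol synthesis, had 118, 112 and 115 CPM in irradiated LBP libraries, 128, 121 and 112 in irradiated vehicle libraries, 105 and 94.5 in LBP libraries and 133 and 107 in vehicle libraries. For both genes the irradiated groups overlapped, and for SQLE the LBP libraries lay just below the vehicle libraries.

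Summed over the 17 enzymes, the level was 2029, 1915 and 2156 CPM in irradiated LBP libraries, 2146, 1925 and 1996 CPM in irradiated vehicle libraries, 1964 and 1918 CPM in LBP libraries and 2157 and 1903 CPM in vehicle libraries. The ranges of the 4 groups overlapped. In a bulk sample, fewer cells making a transcript and less of it per cell cannot be told apart. The group means of single sterol enzymes differed by at most 1.36-fold (TM7SF2) and by as little as 1.03-fold (LSS). CYP51A1, the lanosterol demethylase, shares 2844 exonic bases with the annotated gene AC000120.2 on the same strand, which is also in the count table, so its value is uncertain.

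Among the 8 enzymes of fatty acid synthesis, elongation and desaturation, 3 passed for the averaged LBP effect (FADS2, ACSS2 and FADS1, given above) and the median of the 8 was 0.004, against 0.01 over all features. The sign of that median was set by single libraries, since it was 0.08 without vehicle replicate 1, -0.06 without vehicle replicate 2 and -0.06 without LBP replicate 1. ACLY, ACACA and FASN, the core of palmitate synthesis, each gave -0.05. ELOVL6, which elongates palmitate, gave -0.13 (95% interval -0.27 to 0.02) and SCD gave 0.06 (-0.18 to 0.29). FASN had 624, 689 and 785 CPM in irradiated LBP libraries, 687, 585 and 680 CPM in irradiated vehicle libraries, 609 and 573 CPM in LBP libraries and 700.5 and 659 CPM in vehicle libraries. SCD had 1370, 1655 and 1429 CPM in irradiated LBP libraries, 1428, 1131 and 1279 CPM in irradiated vehicle libraries, 1350 and 1035 CPM in LBP libraries and 1492 and 1069 CPM in vehicle libraries. The irradiated groups overlapped for both genes, and within each non-irradiated group the 2 SCD libraries were further apart than the group means.

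**Figure D3:**
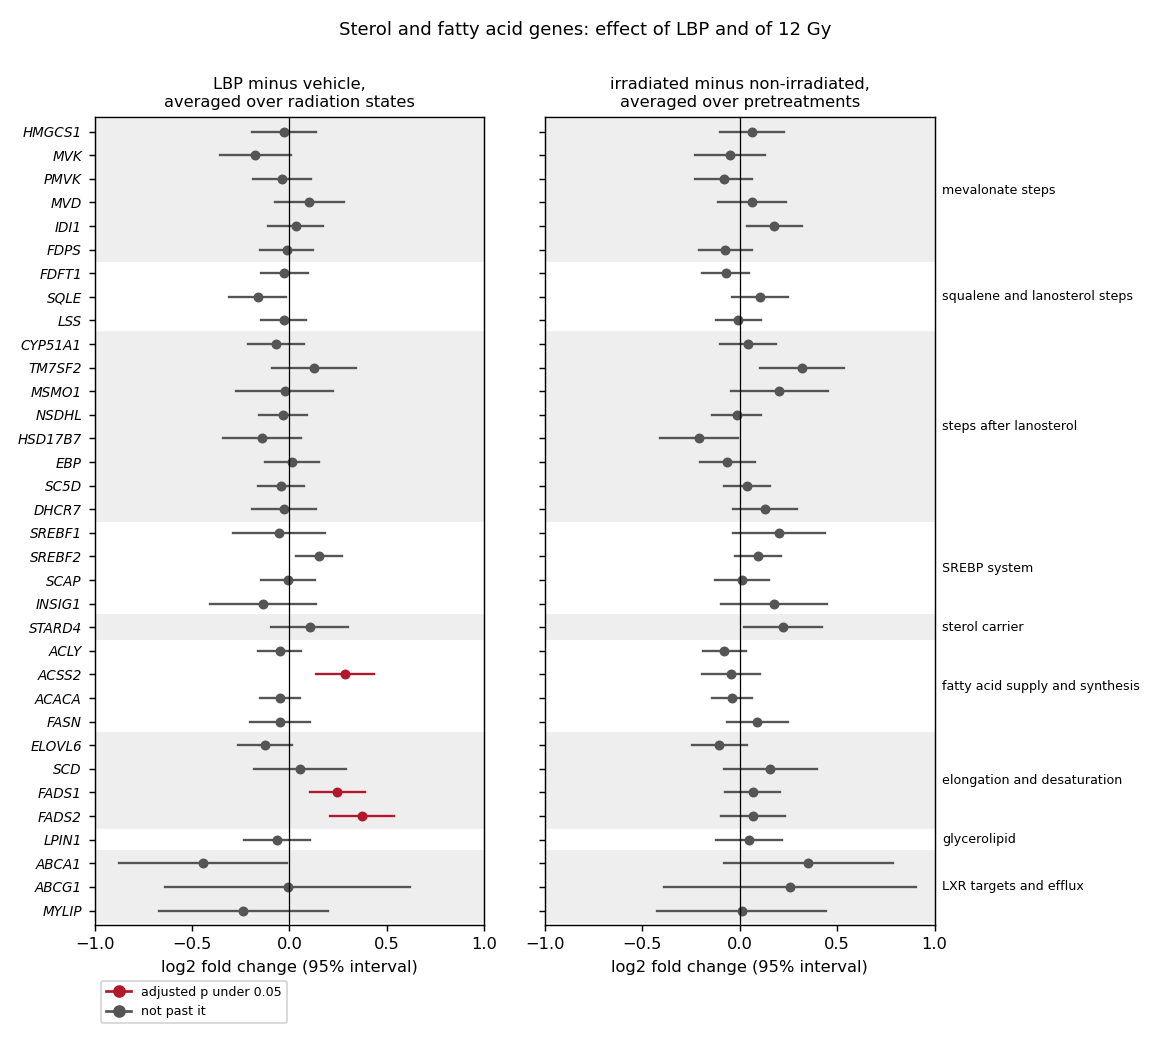
Log2 fold change (points) and 95% interval (lines) of the 34 genes for LBP minus vehicle averaged over radiation states (left) and irradiated minus non-irradiated averaged over pretreatments (right), grouped by role. FADS1, FADS2 and ACSS2, in red, passed for LBP, 0 of 34 passed for irradiation, and the widest intervals belong to ABCA1, ABCG1 and MYLIP.

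Of the SREBP system, SREBF2, whose protein mainly drives sterol synthesis, had 238, 233 and 255 CPM in irradiated LBP libraries, 212, 195 and 219 CPM in irradiated vehicle libraries, 225 and 210 CPM in LBP libraries and 215 and 195 CPM in vehicle libraries. Its averaged LBP effect was 0.15 ± 0.05 (SE; adjusted p = 0.117) and did not pass. SREBF1, whose protein mainly drives fatty acid synthesis, had 120.0, 142 and 182 CPM in irradiated LBP libraries, 145, 109 and 133 CPM in irradiated vehicle libraries, 114 and 102 CPM in LBP libraries and 141 and 126 CPM in vehicle libraries. The irradiated groups overlapped, while both LBP libraries lay below both vehicle libraries. INSIG1, the sterol-sensitive brake on SCAP, had 76.1, 81.1 and 106 CPM in irradiated LBP libraries, 95.7, 70.8 and 77.9 CPM in irradiated vehicle libraries, 70.7 and 60.6 CPM in LBP libraries and 101 and 70.4 CPM in vehicle libraries. SCAP itself varied by at most 1.22-fold over the 10 libraries. SREBF1 shares 556 exonic bases with RAI1 on the opposite strand, so its counts may hold reads of that gene.

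Of the other 2 genes outside the enzyme groups, STARD4, a sterol carrier between membranes, gave an averaged LBP effect of 0.10, and LPIN1, a phosphatidate phosphatase of glycerolipid synthesis, gave -0.06; neither passed.

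The 3 LXR-responsive genes were low and the most variable of the 34. ABCA1, which exports cholesterol to apolipoproteins, had 2.65, 3.24 and 5.92 CPM in irradiated LBP libraries, 4.25, 3.64 and 4.07 CPM in irradiated vehicle libraries, 2.56 and 2.04 CPM in LBP libraries and 4.37 and 4.03 CPM in vehicle libraries. Both LBP libraries lay below both vehicle libraries, while irradiated LBP replicate 3 was the highest of all 10. The averaged LBP effect was -0.44 ± 0.20 (SE; adjusted p = 0.203) and did not pass. Without irradiated LBP replicate 3 it was -0.66 and passed (adjusted p = 0.0133), and in a fit of the 2 non-irradiated groups alone LBP against vehicle gave -0.87 and passed (adjusted p = 0.0474).

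MYLIP, a ubiquitin ligase that removes lipoprotein receptors, had 4.21, 10.1 and 8.64 CPM in irradiated LBP libraries, 7.42, 6.05 and 5.96 CPM in irradiated vehicle libraries, 5.82 and 5.08 CPM in LBP libraries and 10.2 and 7.64 CPM in vehicle libraries. The irradiated LBP libraries spanned the whole range of the irradiated vehicle libraries. ABCG1 had 0.547, 0.709 and 1.25 CPM in irradiated LBP libraries, 0.663, 0.550 and 0.367 CPM in irradiated vehicle libraries, 0.398 and 0.468 CPM in LBP libraries and 0.868 and 0.557 CPM in vehicle libraries. Over the 10 libraries the highest value was 2.90 times the lowest for ABCA1, 3.40 times for ABCG1 and 2.43 times for MYLIP.

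**Figure D4:**
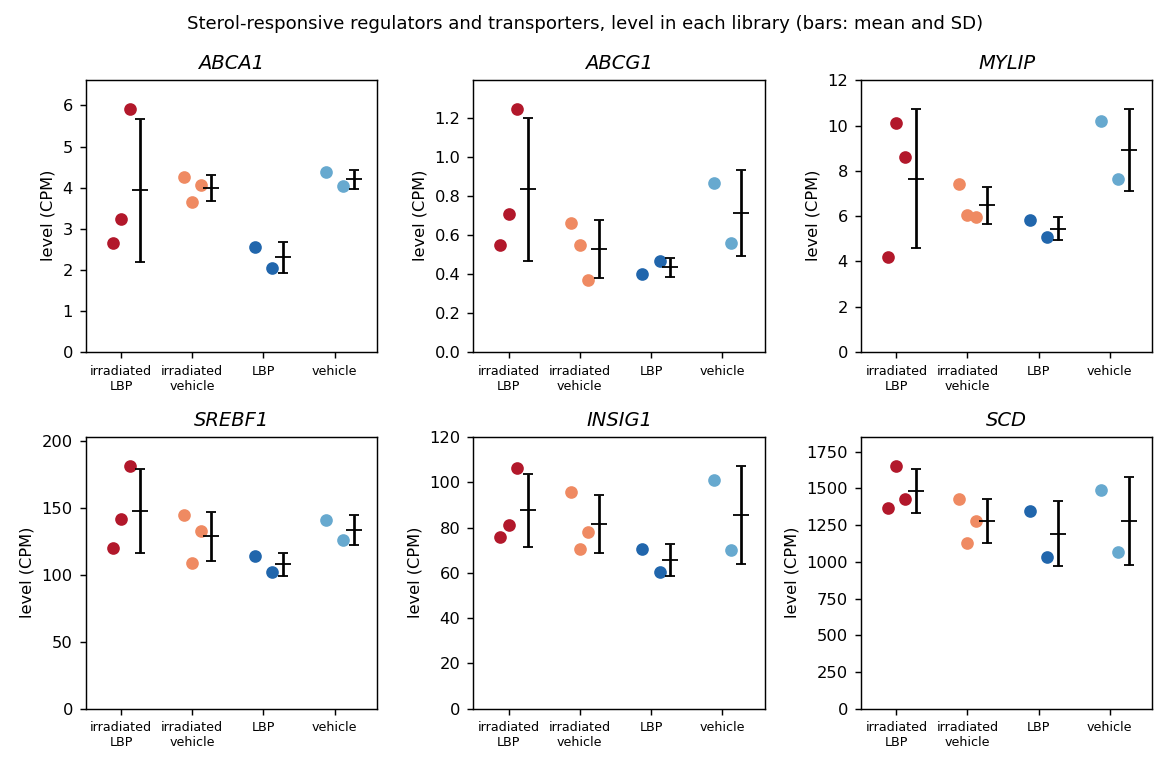
CPM of ABCA1, ABCG1, MYLIP, SREBF1, INSIG1 and SCD in each library (points), with the mean and SD beside them; the axes start at 0. For ABCA1, ABCG1, MYLIP and SREBF1 both LBP libraries lie below both vehicle libraries, and the irradiated LBP libraries run between 2.65 and 5.92 CPM for ABCA1 and between 4.21 and 10.1 CPM for MYLIP.

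The effect of 12 Gy at 3 h was asked in the same way. For irradiation averaged over both pretreatments edgeR called 0 of the 34 genes, against 0.561% of all features, and DESeq2 called 0. There were 4 at an unadjusted p under 0.05 (11.8%, against 11.5% of all features). They were TM7SF2 (0.32, adjusted p = 0.280), IDI1, the isopentenyl diphosphate isomerase (0.18, adjusted p = 0.350), STARD4 (0.22, adjusted p = 0.394) and HSD17B7 (-0.21, adjusted p = 0.417). The median of the 34 was 0.06, against 0.001 over all features, and that of the 17 sterol enzymes was 0.03. Without vehicle replicate 2 the median of the 34 was 0.02 and that of the sterol enzymes -0.02, and without vehicle replicate 1 they were 0.11 and 0.06. The median of the sterol enzymes was also -0.003 without irradiated LBP replicate 3 and 0.0005 without LBP replicate 2, so it had no stable direction. The 95% intervals of the 17 ran from -0.41 (HSD17B7) to 0.54 (TM7SF2).

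In irradiated vehicle against vehicle, edgeR and DESeq2 called 0 of the 34 (0.439% of all features were called by edgeR), and 2 had an unadjusted p under 0.05 (5.88%, against 6.91%). ACACA had 187, 187 and 189 CPM in irradiated vehicle libraries, against 231 and 205 CPM in vehicle libraries, a log2 fold change of -0.21 (adjusted p = 0.478). ACLY had 528, 500.1 and 540 CPM in irradiated vehicle libraries, against 630 and 557 CPM in vehicle libraries, a log2 fold change of -0.18 (adjusted p = 0.635). The groups did not overlap for 2 genes that were higher, TM7SF2 and STARD4 (5.88%, against 13.8% of all features), and for 4 that were lower, ACLY, ACACA, ELOVL6 and MYLIP (11.8%, against 13.9%).

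In irradiated LBP against LBP, edgeR and DESeq2 also called 0 of the 34 (0.142% of all features were called by edgeR), while 8 had an unadjusted p under 0.05 (23.5%, against 13.5%). Of these, SREBF1 (0.45, adjusted p = 0.280), ABCA1 (0.78), TM7SF2 (0.34), FASN (0.24), INSIG1 (0.42), STARD4 (0.30) and ABCG1 (0.94) were above 0, and HSD17B7 (-0.34) was below it. The irradiated LBP libraries lay wholly above the LBP libraries for 11 of 34 (32.4%, against 14% of all features) and wholly below them for 2 of 34 (5.88%, against 14%). The 2 LBP libraries that are the low side here are also the low side of LBP against vehicle above, so the 2 sets of values are not independent.

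The interaction, the LBP effect in irradiated minus that in non-irradiated cells, is the test of whether the response to LBP differed with radiation. It was called for 0 of the 34 genes by edgeR, against 0.0135% of all features, and for 0 by DESeq2. There were 4 at an unadjusted p under 0.05 (11.8%, against 8.20% of all features), and all were above 0, namely ACACA (0.35 ± 0.09 SE, adjusted p = 0.573), MYLIP (0.94 ± 0.40), SREBF1 (0.50 ± 0.22) and ABCG1 (1.37 ± 0.59), the last 3 with an adjusted p of 0.597. The value was above 0 for 29 of 34 genes, and 50.9% of all features were above 0; the median was 0.12, against 0.01. Leaving out 1 library at a time gave 22 to 29 genes above 0 and medians of 0.04 to 0.17, with 22 genes and the lowest median without vehicle replicate 1 and 22 genes without LBP replicate 2. Of the 17 sterol enzymes 12 were above 0, with a median of 0.04, but 8 were without vehicle replicate 1 (median -0.02) and 8 without irradiated vehicle replicate 2 (-0.0006). Of the 8 fatty acid enzymes 8 were above 0, with a median of 0.15, and 6 without vehicle replicate 1, with a median of 0.07. For FADS2 it was 0.004, with a 95% interval of -0.33 to 0.33.

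Within a group, many of the 34 genes had their highest value in the same library. In the vehicle group replicate 1 was the higher library for 29 of 34 genes and 15 of the 17 sterol enzymes, while it was the higher for 50.3% of all features. In the irradiated vehicle group replicate 1 was the highest for 22 of 34, against 29.2% of all features. In the irradiated LBP group replicate 3 was the highest for 22 of 34, against 37.2%, and in the LBP group replicate 1 was the higher for 22 of 34, against 48.8%. Vehicle replicate 1 held 38107258 counts and vehicle replicate 2 held 62986831; the part of depth in this order was not tested. These are counts over genes of 1 library each and describe the libraries.

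**Figure D5:**
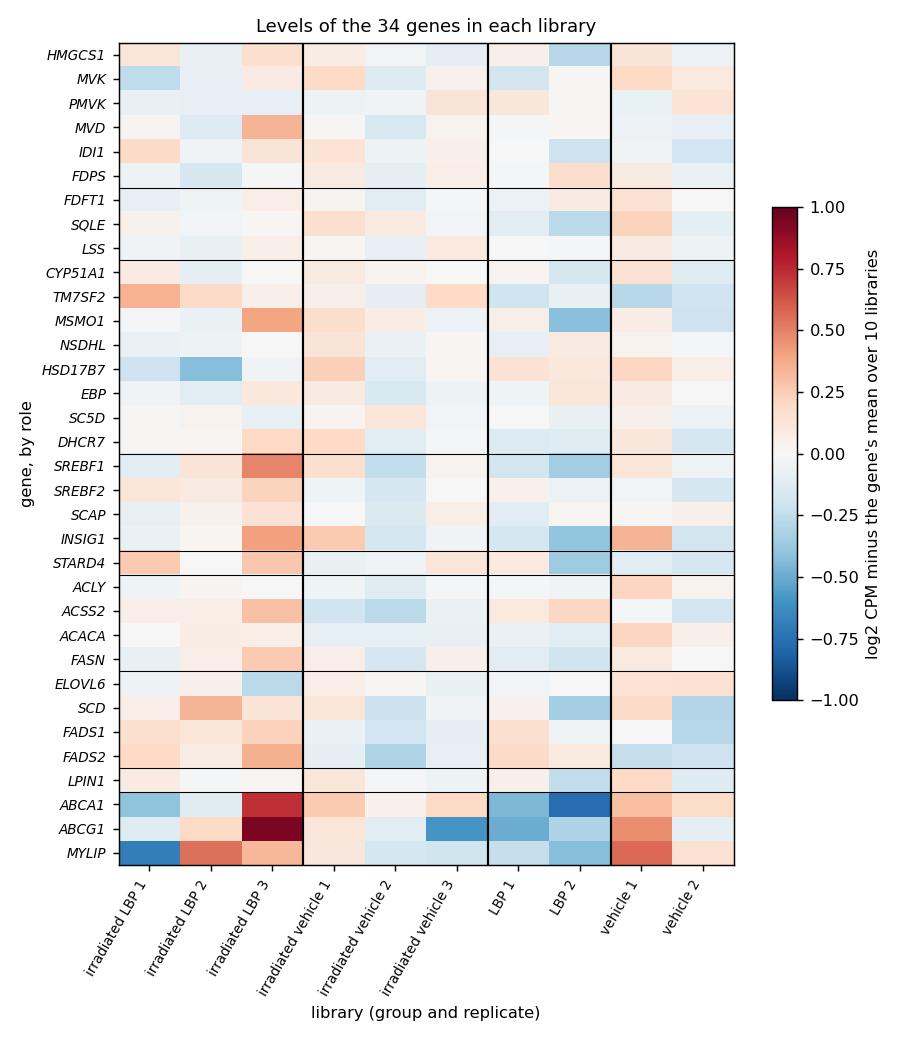
Log2 CPM of each of the 34 genes (rows, by role) in each of the 10 libraries (columns, by group), minus the gene's mean over the 10 libraries; red is above and blue below the mean. Vehicle replicate 1 is redder than vehicle replicate 2 in 29 of 34 rows, and FADS2 and ACSS2 are higher in the LBP columns than in the vehicle columns.

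Other genes of lipid metabolism were read from 6 lists that share no gene with the 34. Of 6 further genes of sterol synthesis, 0 passed edgeR's test in any comparison, although 4 had an unadjusted p under 0.05 for the averaged LBP effect, where the median was -0.13; 23.3% of all features were under that p. Of 12 genes of glycerolipid synthesis and lipid droplets, 0 passed in any comparison, where edgeR called 3.99% of all features higher and 2.93% lower for the averaged LBP effect. For that effect 2 of the 12 (16.7%) had an unadjusted p under 0.05, against 23.3% of all features.

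Of 21 genes that activate, elongate or desaturate fatty acids or supply their synthesis, 2 rose (9.52%, against 3.99% of all features) and 1 fell (against 2.93%) for the averaged LBP effect. FADS3 rose as given above, ME1, the cytosolic malic enzyme that supplies NADPH, rose by 0.28 ± 0.05 on the log2 scale (SE; adjusted p = 0.00718), and SCD5, another stearoyl-CoA desaturase, fell by 0.57 (adjusted p = 0.0191). ME1 had 137, 131 and 120.2 CPM in irradiated LBP libraries, 106, 111 and 106 CPM in irradiated vehicle libraries, 131 and 133 CPM in LBP libraries and 111 and 103 CPM in vehicle libraries. All 5 LBP libraries were above all 5 vehicle libraries for ME1. In irradiated LBP against irradiated vehicle FADS3 (0.50, adjusted p = 0.00708) and ME1 (0.27, adjusted p = 0.0379) rose, where 2.79% of all features were called higher. In LBP against vehicle FADS3 rose (0.57, adjusted p = 0.0201), where 0.541% of all features were called higher.

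Of 10 genes of SREBP processing and turnover, 2 rose and 1 fell for the averaged LBP effect (against 3.99% and 2.93% of all features), and 1 rose in irradiated LBP against irradiated vehicle (against 2.79%). ERLIN2, part of an endoplasmic reticulum complex that degrades membrane proteins, rose for the averaged LBP effect (0.27, adjusted p = 0.00989) and in irradiated LBP against irradiated vehicle (0.34, adjusted p = 0.0153). RNF139 rose (0.24, adjusted p = 0.0439) and RNF145 fell (-0.34, adjusted p = 0.0276) for the averaged effect; both are membrane ubiquitin ligases of the endoplasmic reticulum.

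Of 17 genes of sterol transport, storage and LXR signalling, 16 were tested. In irradiated LBP against irradiated vehicle, 2.79% of all features were higher and 1.57% lower. In irradiated LBP against irradiated vehicle NPC1, which moves cholesterol out of lysosomes (0.45, adjusted p = 0.0372), and the lipoprotein receptor LRP8 (0.36, adjusted p = 0.0346) rose, while SOAT1, which esterifies cholesterol for storage, fell (-0.28, adjusted p = 0.0350). SOAT1 also fell for the averaged LBP effect (-0.25, adjusted p = 0.0155), where 2.93% of all features were called lower.

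Of 12 genes of fatty acid oxidation and its PPAR regulators, 10 were tested, of which 1 rose in irradiated LBP against irradiated vehicle (against 2.79% of all features) and 1 rose for the averaged LBP effect (against 3.99%). CPT1A, the carnitine palmitoyltransferase that admits fatty acids to mitochondria, was higher in irradiated LBP than in irradiated vehicle (0.30, adjusted p = 0.0145). Its mean was 177 CPM in irradiated LBP, 144 CPM in irradiated vehicle, 168 CPM in LBP and 166 CPM in vehicle libraries. The irradiated vehicle group was thus the lowest, and the LBP and vehicle means lay close together. ANGPTL4, a PPAR target that inhibits lipoprotein lipase, rose for the averaged LBP effect (0.91, adjusted p = 0.00982), with 5.49, 3.39 and 6.69 CPM in irradiated LBP libraries, 3.19, 3.01 and 3.30 CPM in irradiated vehicle libraries, 4.15 and 3.75 CPM in LBP libraries and 1.61 and 2.02 CPM in vehicle libraries. Of the 6 keratinocyte markers, TP63 (0.32, adjusted p = 0.0170) and DSG3 (0.31, adjusted p = 0.0143) rose for the averaged LBP effect, against 3.99% of all features. The means of KRT5 and KRT14 were higher with LBP in both radiation states. Those of ITGB4 and COL17A1 were higher with LBP in irradiated cells and lower with it in non-irradiated cells. The part of these markers in the results above was not tested.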

How the data were processed

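RNA was sequenced from 10 HaCaT libraries in 4 groups, assigned from the labels. The authors deposited whole-number counts per gene and FPKM; the submitters' processing notes name HISAT2 and GRCh38 without versions, and no source used here states the counting tool, its strand setting or its annotation. In the deposited counts 6040 values were 2 and 1398 were 1, and 59.7% of values from 1 to 10 were even; why was not tested. Depth was 31830506 to 62986831 counts.

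Tests on the deposited counts used R 4.3.3 with edgeR 4.0.16: filterByExpr with a minimum count of 10, TMM scaling, a quasi-likelihood fit of all 10 libraries with 1 mean per group (6 residual degrees of freedom), 7 contrasts, and Benjamini-Hochberg adjustment over 14799 features at 0.05. The script was tested on simulated data. Alternatives used DESeq2 1.42.0 and limma 3.58.1 on log2(FPKM + 0.1) and log2(FPKM + 1), other scalings, no filter, a replicate block and leaving out each library. Positions came from GENCODE and promoters from RefSeq. Figures were drawn with matplotlib 3.10.9.

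The 34 genes and the lists were chosen with earlier results of these data known. Genes past the adjusted threshold are given by library and the others by ranges and counts; from each further list those past it are named, at most 6 per comparison, except for 1 gene that is not reported here. No column of the deposited tables belonged to another sample. Libraries of 1 group differed by more than counting noise.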

Additional observations from a re-analysis of the deposited data

How the results depend on the processing

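For irradiated LBP against irradiated vehicle 1 gene was called; library size scaling alone and limma on log2(FPKM + 0.1) with no filter called 0, no filter on low counts called 2, DESeq2 called 4 and the replicate block called 4. Leaving out 1 library at a time gave 0 to 1. The fit of only the 2 groups also called 1, which was FADS1 (adjusted p = 0.0441) and not FADS2. For LBP against vehicle the fit of only the 2 groups called 1, ABCA1, against 0. For the averaged LBP effect, where 3 were called, limma on FPKM called 1 with a pseudocount of 0.1, 1 with a pseudocount of 1 and 1 with no filter, and leaving out 1 library gave 0 to 3, with 0 without LBP replicate 1 or vehicle replicate 2 and 1 without irradiated vehicle replicate 1 or 2 or vehicle replicate 1. The cause was not tested. For the other 4 comparisons every setting run called 0 of the 34. No called value changed sign: FADS2 was called in 15 of 18 other settings for the averaged effect, ACSS2 in 9 of 18, FADS1 in 7 of 18, and FADS2 in 7 of 19 in irradiated cells.

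The replicate block is given here only, since the labels do not say what libraries with the same number share. Of 13 same-numbered pairs, 2 had deviations correlated above 0.1, over a range of -0.29 to 0.23. These values cannot decide whether the libraries are paired, because in groups of 2 libraries the 2 deviations mirror each other and the pairs are not independent. The block's 4 calls were ACSS2, FADS1, FADS2 and SREBF2, it called 3 for the averaged effect, and with it the median irradiation effect of the 17 sterol enzymes was -0.02, against 0.03. With 2 or 3 libraries a group and a common biological coefficient of variation of 11.5%, small changes of the low genes ABCA1, ABCG1 and MYLIP were not detectable.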
